A study of Mus musculus with 4 samples.

Results

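Cortical layer 6 spots are the capture areas of a spatial assay in which 4 genes typical of the deepest layer of the mouse cerebral cortex were high together. The 4 genes were Rprm, Nxph3, Trbc2 and Myl4. A spot was a member when the mean of the 4 z-scores was at least 1 and the mean z-score of Ccn2 and Cplx3, markers of the thin layer 6b beneath, was below 1.5. A z-score here is a gene's log-scaled level in a spot, in standard deviations from its mean over all kept spots. The rule took 1179 of 12601 kept spots, or 9.36%. Because these 6 genes chose the members, their levels are given below only as a description.

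The study read coronal sections from 4 mice. Of these, 2 were wild-type animals and 2 were Celsr3 heterozygotes, with Celsr3 an adhesion receptor of the cadherin family. No animal was treated, and no age, sex or strain is given in the sources used here. No driver line or cell-type-specific deletion is named. Brains were trimmed to show the striatum, fixed in formalin, embedded in paraffin and read with the Visium CytAssist assay, in which probes for each gene are caught on an array of spots with known barcodes. One spot covers enough tissue to mix cells of several types. The spot names fall into 4 barcode sets, and neither the labels nor the table ties any set to a mouse. No genotype comparison was therefore made, and every value below is given for sets 1 to 4, with no mean and no test over sets.

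Layer 6 is the output layer through which the cortex speaks back to the thalamus. Its best known neurons are the corticothalamic cells, which send axons to the thalamic nucleus that feeds the same cortical area and also contact layer 4 on their way up. Other layer 6 neurons project within the cortex, and at the lateral edge of the layer lies the claustrum, a sheet of cells with a related set of genes. Transcription factors such as Tbr1, Sox5, Tle4 and Foxp2 are known for their part in forming or marking the corticothalamic cells.

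Sets 1 to 4 held 272, 281, 347 and 279 members. These made up 8.90%, 10.0%, 10.1% and 8.47% of the kept spots, with exact Clopper-Pearson 95% intervals of 7.92 to 9.97, 8.92 to 11.2, 9.09 to 11.1 and 7.54 to 9.47. The 4 intervals overlap, and they cover counting error only. Summed counts in the members were 20074666, 12811368, 22338854 and 9731917 in sets 1 to 4, and the median counts per member spot were 69343, 45801, 64120 and 35005. Members were deeper than the other spots of their own set, whose medians were 50179, 37231, 42328 and 25550. This depth was shared with the rest of the cortex. The other cortical spots, defined further on, had medians of 67066, 47237, 63118 and 31909, above the members in set 2. The members carried 1082 different barcodes, of which 987 occurred in 1 set, 93 in 2 sets, 2 in 3 sets and 0 in all 4.

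**Figure D1:**
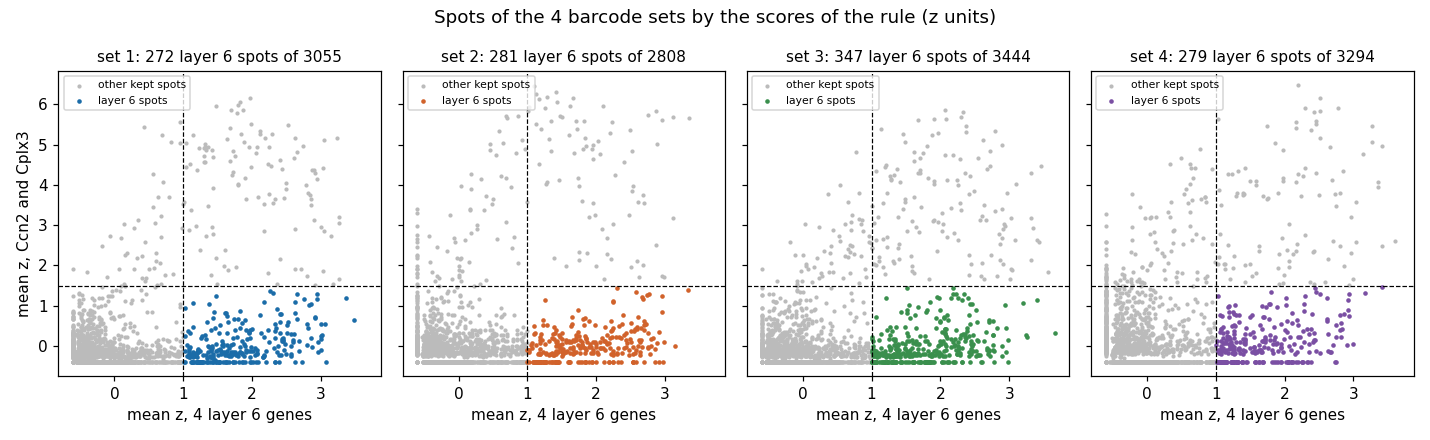
Each point is a kept spot of 1 barcode set, placed by its mean z-score of the 4 layer 6 genes (horizontal axis) and of Ccn2 and Cplx3 (vertical axis). The dashed lines are the limits of the rule, 1 and 1.5, and the coloured points below and to the right of them are the 1179 members, while 429 spots above the horizontal line passed the layer 6 limit but were left out.

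The rule cut through a continuous range. The lowest member had a mean z of 1.00, the median member 1.69 and the highest 3.66. There were 94 members between 1 and 1.1 and 124 spots between 0.9 and 1 that just missed. Summed over the spots just inside, Rprm stood at 80.2 CPM (a gene's counts per 1000000 of all counts summed over the same spots) and just outside at 64.3 CPM. Trbc2 stood at 89.2 and 70.2 CPM, while Myl4 stood at 199 and 208 and Nxph3 at 70.0 and 71.0. The 429 spots left out for Ccn2 and Cplx3 had 271 CPM of Rprm and 470 CPM of Nxph3, both above the members near the limit.

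Among all members, Rprm, a cell-cycle arrest gene long used to mark layer 6, was at 193, 228, 213 and 226 CPM in sets 1 to 4. Nxph3, a secreted partner of neurexins, was at 143, 132, 143 and 118 CPM. Trbc2, a constant segment of the T-cell receptor, was at 182, 134, 176 and 113 CPM, and Myl4, a myosin light chain of embryonic and atrial muscle, was at 214, 322, 193 and 294 CPM. The gene names would fit T cells or heart muscle, so the other markers of those cells were read as well. In the members, 7 T-cell genes summed to between 1.39 and 4.73 CPM, and 6 heart muscle genes to between 5.34 and 9.13 CPM. Cd3e and Cd3g had 0 counts in set 1 and at most 5 in any set, and Tnnt2 had 18 to 123 counts, the most of any heart muscle gene in each set. None of the 13 genes reached the level needed for a comparison.

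The label was also read against genes that the rule did not use. Of the members, 1162 (98.6%) were also cortical by 3 genes of cortical excitatory neurons, with a mean z of at least 0.5. A list of 10 corticothalamic genes, chosen with earlier results of these data known, summed to 687, 798, 722 and 787 CPM in the members of sets 1 to 4. In the other cortical spots it summed to 335, 365, 347 and 435 CPM, with no overlap between the areas. In that comparison 2441 of 9811 genes were higher in every set. In layer 6b the list summed to 750 to 876 CPM, so it did not part layer 6 from layer 6b. Markers of several other places were scarce: 0 members of any set were rich (mean z of at least 1) in the layer 2/3, striatum, thalamus or astrocyte lists. This allows shares of up to 1.35%, 1.30%, 1.06% and 1.31% in sets 1 to 4. Thalamus-rich spots were only 0.0791% of the other spots of set 2. The layer 5 list differed: 0.368%, 0.356%, 1.15% and 4.30% of members were rich in it, against 0.934%, 1.07%, 0.936% and 2.42% of other spots. For the layer 4 list the share of members reached 2.87% in set 4, against 8.66% of other spots. Members rich in the claustrum list made up 13.2%, 13.2%, 14.1% and 20.4% of the members of sets 1 to 4, and they are described further on. Among the other spots the claustrum-rich share was 1.87%, 3.40%, 1.97% and 4.81%. All 8 microglia genes, all 6 astrocyte genes and all 4 endothelial genes with enough signal were lower in the members than in all other spots in every set, with median log2 differences of -0.38, -0.71 and -0.38. Over all 10002 genes compared there, 4534 were lower in every set.

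**Figure D2:**
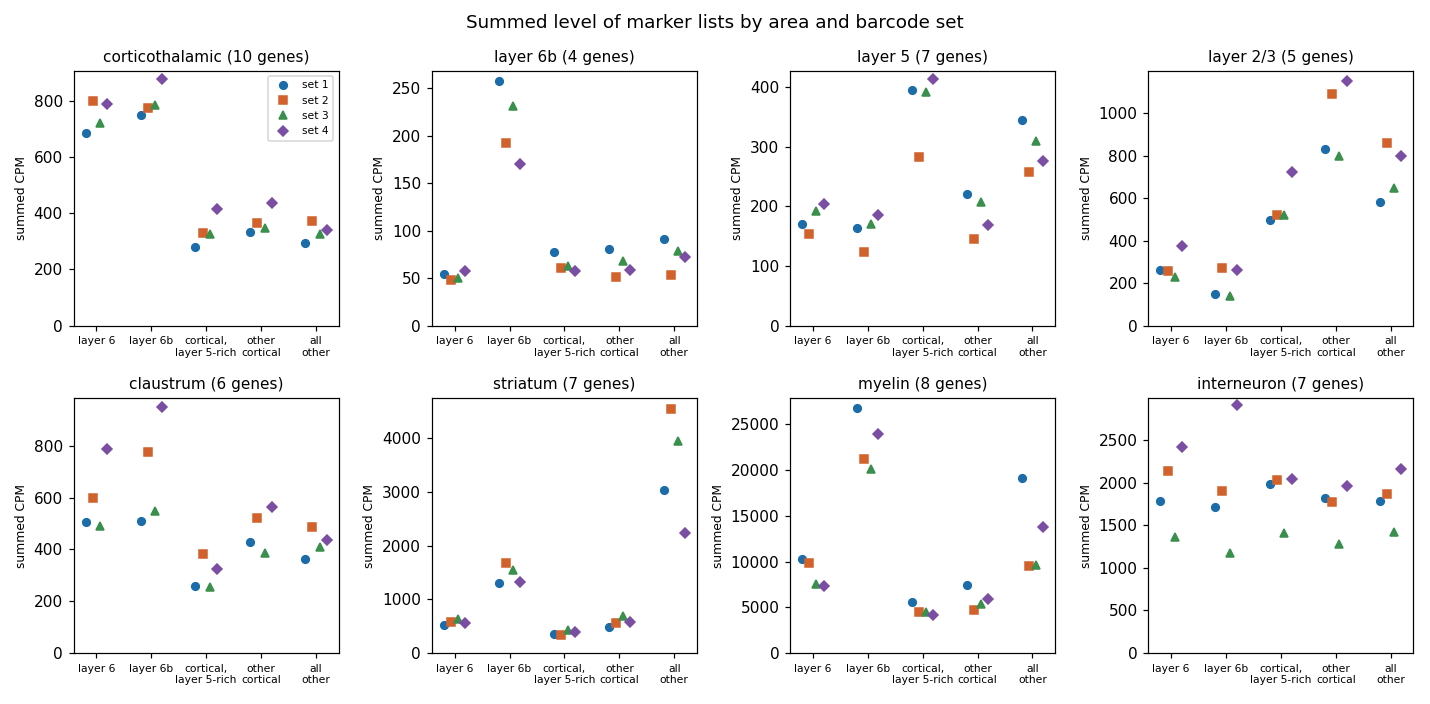
Each panel gives the summed CPM of a marker list (vertical axis, from 0) in 5 areas, with 1 symbol for each barcode set and no error bar. Layer 6 spots stand with layer 6b in the corticothalamic list (687 to 798 CPM against 750 to 876), and apart from it in the myelin list (7337 to 10316 CPM against 20155 to 26758).

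The first comparison set the members against all other kept spots, which asks what marks layer 6 in a whole coronal section. A gene counts as higher or lower when it differed at least 2-fold on the scale of log2(CPM + 1) in every one of the 4 sets. Only genes averaging 10 CPM or more over both areas were compared. A gene below 10 CPM in 1 area entered only through its level in the other, so its difference is partly set by the filter. That scale understates differences of low genes. Of 10002 genes, 95 were higher in the members (0.95%) and 220 lower (2.2%). These numbers include the rule's own genes, which are 4 of the 95, and as the members were chosen on the same counts they are a description. Other scalings moved the balance, to 135 higher and 166 lower with TMM and 145 and 158 with RLE. In summed spots, more cells of a type and more RNA per cell cannot be told apart.

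Outside the rule, Krt80, a keratin, ranked first among the genes compared. It reached the 10 CPM average only through the members, where it was high. It was at 24.7, 20.5, 22.8 and 17.4 CPM in the members of sets 1 to 4 and at 2.44, 2.78, 3.33 and 2.41 CPM in the other spots, ratios of 10.1, 7.39, 6.85 and 7.21. Every member value lay above every other value, a gap that the filter partly sets. Vxn, a neuronal differentiation factor, was at 1124, 1055, 1001 and 937.5 CPM against 192, 224, 203.5 and 184 CPM. Tbr1, the T-box factor of early-born cortical neurons, was at 109, 167, 115 and 186 CPM against 21.5, 47.3, 32.7 and 46.4 CPM. Arhgap25, which switches off Rac signalling, was 5.62-, 5.31-, 5.25- and 6.45-fold higher. Nptx1, a pentraxin that gathers glutamate receptors at synapses, was 4.96-, 3.63-, 3.63- and 3.83-fold higher. Il17ra, a receptor chain for interleukin 17, was 4.08-, 4.34-, 3.78- and 3.69-fold higher, at 32.2 to 55.5 CPM. Sstr2, a somatostatin receptor, stood at 59.0 to 85.2 CPM against 16.6 to 19.8 CPM, and Rspo2, a secreted amplifier of Wnt signals, at 29.7 to 56.3 CPM against 6.69 to 13.4 CPM.

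The 10-gene corticothalamic list was chosen with earlier results of these data known. Of its 9 genes with enough signal, 4 were 2-fold higher in every set (Tbr1, Sox5, Zfpm2 and Hs3st4), and all 9 were higher to some degree in every set. Their median log2 difference was 1.14, against -0.07 over all 10002 genes, of which 2455 were higher in every set. Foxp2 did not pass against this background: it was 1.40-, 1.37-, 1.60- and 1.12-fold higher, and the other spots as a whole, at 20.8 to 24.2 CPM, had more of it than the rest of the cortex, at 6.25 to 8.87 CPM. Among the lower genes were striatum genes. Of 7 striatum genes 6 were 2-fold lower, with a median log2 difference of -3.33. Drd2, the dopamine receptor of indirect-pathway striatal neurons, was at 2.36 to 3.98 CPM in the members against 53.1 to 124 CPM.

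Promoter letters were read for the genes that were higher, since they were higher in the same area. RefSeq windows of 250 bases upstream of the start (GRCm38.p6) were at hand for 68 of the 91 genes outside the rule. The E-box CAGATG, read on both strands, was in 15 of the 68 (22.1%). It was in 12.9% of 12336 genes of the table with a window and in 16.3% of all 27025 genes of the promoter table. The forkhead letters TGTTTAC were in 6 of 68 (8.82%), against 2.64% and 3.54%, and the T-box letters GGTGTGA in 2 of 68 (2.94%), against 3.66% and 3.84%. Of the genes higher than in other cortical spots, described below, 18 had a window, and the E-box was in 2 (11.1%) and the forkhead and T-box letters in 1 each (5.56%). A gene with several windows counts as holding the letters when any of them does. These are counts of letters and say nothing of binding.

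The windows of 3 such genes are shown because each carries the letters of a factor family known in these neurons, with the matched letters in capitals, 5′ to 3′ on the gene's strand. Neurod2 (chr11:98329646-98329895, minus strand) and Arhgap25 (chr6:87496328-87496577, minus strand) hold the E-box, which starts 118 and 25 bases before the start site of the window shown. Arhgap25 has a second window (chr6:87533260-87533509) without any of the letters. Cckbr (chr7:105425481-105425730, plus strand) holds the T-box letters and the forkhead letters, both in reverse, starting 130 and 101 bases before it. Each window lies upstream of the start site it belongs to. On the minus strand, the Arhgap25 window shown lies downstream of that gene's second window.
Neurod2: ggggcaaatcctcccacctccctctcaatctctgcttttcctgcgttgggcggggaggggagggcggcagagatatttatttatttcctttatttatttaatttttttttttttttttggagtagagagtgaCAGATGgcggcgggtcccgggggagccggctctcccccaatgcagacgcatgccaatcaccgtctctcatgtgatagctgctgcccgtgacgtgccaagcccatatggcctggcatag
Arhgap25: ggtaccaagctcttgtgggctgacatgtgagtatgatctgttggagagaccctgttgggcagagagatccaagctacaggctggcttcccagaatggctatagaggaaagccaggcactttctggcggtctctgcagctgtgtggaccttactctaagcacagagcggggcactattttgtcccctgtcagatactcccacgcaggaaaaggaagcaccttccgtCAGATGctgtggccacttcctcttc
Cckbr: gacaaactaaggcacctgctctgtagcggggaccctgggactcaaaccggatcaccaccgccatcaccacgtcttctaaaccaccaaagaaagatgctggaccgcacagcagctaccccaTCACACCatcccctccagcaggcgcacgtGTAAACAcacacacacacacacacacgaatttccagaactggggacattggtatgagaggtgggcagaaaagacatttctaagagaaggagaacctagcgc
Neurod2, a basic helix-loop-helix factor of cortical excitatory neurons, was at 152, 175, 147.5 and 209 CPM in the members against 39.5, 62.2, 48.1 and 59.4 CPM in all other spots. Cckbr, a receptor for cholecystokinin, was at 82.1 to 112 CPM against 36.4 to 47.8 CPM, with no overlap. Against other cortical spots neither gene stood out: Cckbr was 1.16-, 1.04-, 1.01- and 0.934-fold. Neurod2 was 1.18- to 1.24-fold there, but it was 1 of the 3 genes that picked the cortical spots. Arhgap25 kept its difference within cortex, at 2.68-fold or more in each set.

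The second comparison kept to the cortex and was added after the first was seen. Its reference was the 3173 spots that passed the cortical minimum and were not members, including 561 of the 711 layer 6b spots. Of 9811 genes, 25 were higher in layer 6 (0.255%) and 50 lower (0.51%), of which 3 and 2 were genes of the rule. Of the 25 genes, 14 (56.0%) were also among the 95 higher against the whole section, which is 14.7% of that list.

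The corticothalamic genes Syt6 and Foxp2 stood furthest apart among the list. Syt6, a synaptotagmin, was at 71.6, 63.6, 65.0 and 46.5 CPM in the members of sets 1 to 4 and at 16.6, 9.70, 13.1 and 13.3 CPM in the other cortical spots, 4.32-, 6.56-, 4.96- and 3.51-fold. Foxp2, the forkhead factor, was at 33.8, 32.0, 33.3 and 24.7 CPM against 8.15, 6.25, 8.87 and 7.76 CPM. It reached the 10 CPM average of this comparison only through the members. In both Syt6 and Foxp2 the lowest member set lay above the highest reference set. The members were chosen on the same counts, and for Foxp2 the filter partly sets the gap, so this is a description. Of the 9 corticothalamic genes with enough signal 3 passed (Syt6, Foxp2 and Hs3st4), and all 9 were higher to some degree in every set, with a median log2 difference of 0.95. Of all 9811 genes 2441 were higher in every set, and the median was -0.004. Tle4, a Groucho co-repressor, missed only in set 4, with ratios of 2.36, 2.67, 2.35 and 1.95.

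Adhesion and guidance genes were among the others. Cdh9, a classical cadherin that helps neurons choose partners, was at 86.3, 61.2, 69.1 and 47.0 CPM against 25.9, 20.6, 19.9 and 15.9 CPM, and Sema3e, a secreted guidance cue, was at 84.8, 45.1, 51.8 and 48.5 CPM against 20.3 to 35.0 CPM. Tpbg, a membrane protein that dampens Wnt signals, was 2.77-, 2.59-, 3.01- and 2.71-fold higher. Of 38 guidance and adhesion genes tested, 2 were 2-fold higher (Cdh9 and Sema3e) and 2 lower, and the median log2 difference was -0.12. Of all 9811 genes, 25 were higher and 50 lower, with a median of -0.004. To some degree 11 of the 38 were higher and 21 lower in every set, against 2441 and 2741 of all 9811 genes. The 2 genes that were 2-fold lower were receptors of semaphorins. Plxnd1, the receptor for Sema3e, was at 17.9, 33.9, 17.3 and 39.8 CPM in the members against 81.9, 153, 91.6 and 142 CPM, and Nrp2 was at 7.42 to 10.2 CPM against 22.9 to 34.1 CPM. The ligand Sema3e and its receptor Plxnd1 thus lay on opposite sides.

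Further genes higher than in other cortex were Serinc2, a serine incorporator, at 26.6, 32.4, 25.6 and 31.3 CPM against 6.49, 10.6, 6.75 and 10.4 CPM, and H2-T23, a nonclassical class I histocompatibility gene, at 38.5, 51.8, 53.4 and 46.8 CPM against 11.2, 17.8, 14.8 and 16.3 CPM. Related class I genes could share probes with H2-T23, so its identity is less sure. Col5a1, a fibrillar collagen chain, was at 19.8, 57.2, 29.3 and 41.4 CPM and so differed more than 2-fold among the sets, yet stood 2.26- to 2.88-fold above the reference of its own set in each. Otx1, a homeobox factor of deep-layer neurons, was at 12.9 to 19.9 CPM against 4.76 to 7.15 CPM. Serinc2 and Otx1 reached the 10 CPM average only through the members.

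The genes lower than in other cortex included the markers of the upper layers. All 4 layer 2/3 genes with enough signal were 2-fold lower, with a median log2 difference of -2.09. Cux2, the homeobox factor of upper-layer neurons, was at 12.5 to 36.1 CPM against 59.0 to 135 CPM, and the calcium buffer Calb1 was at 54.6, 79.8, 59.6 and 88.0 CPM against 312, 412, 297 and 424 CPM. Of 3 layer 4 genes 2 were lower, Rorb at 0.343- to 0.438-fold and Rspo1 at 0.141- to 0.188-fold. Gfap, the astrocyte filament, was at 19.9 to 32.5 CPM against 46.9 to 72.5 CPM, the only 1 of 6 astrocyte genes to pass. All 8 myelin genes were higher in the members in every set, 0 of them 2-fold in each, with a median log2 difference of 0.46, where 2441 of all 9811 genes were higher in every set. Mbp was at 4353, 4915, 3042 and 3749 CPM against 3016, 2391, 2125 and 2940 CPM.

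**Figure D3:**
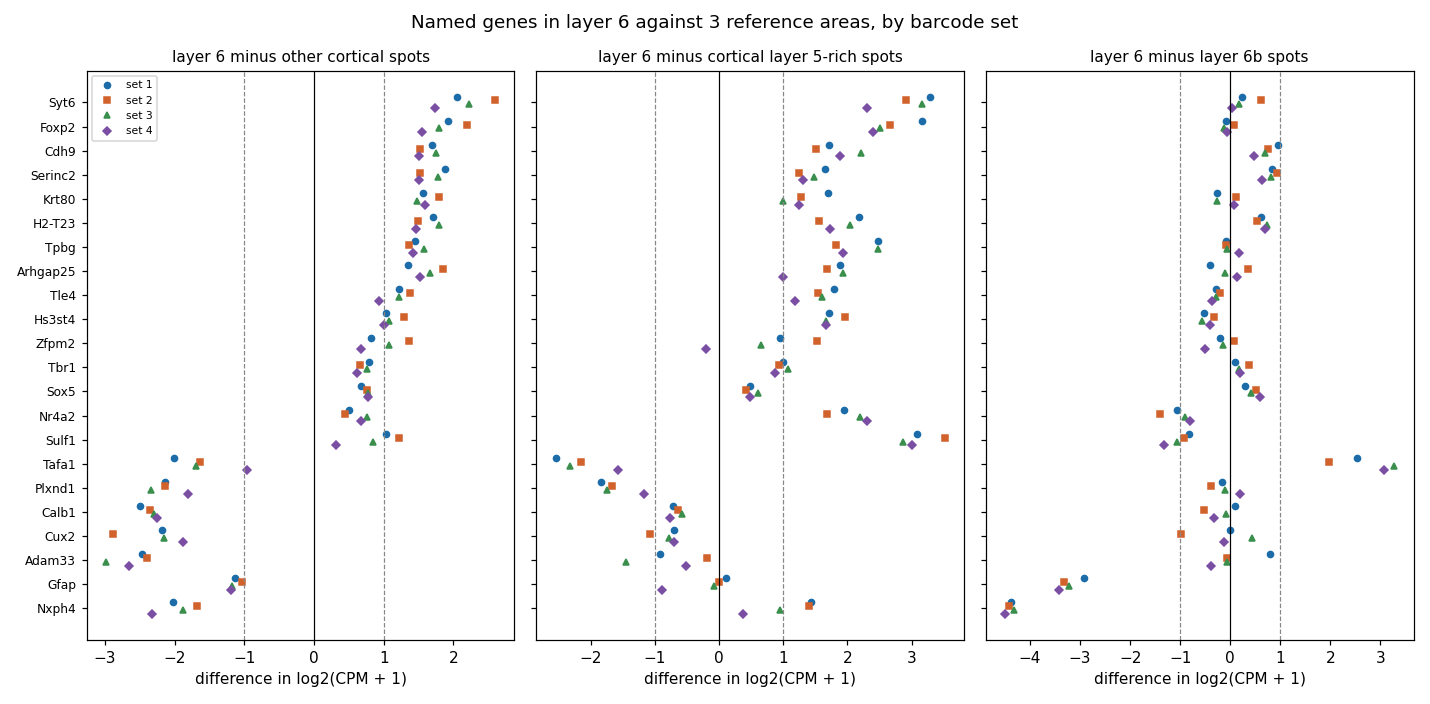
Each symbol is the difference in log2(CPM + 1) between layer 6 spots and a reference area in 1 barcode set (horizontal axis), for 22 named genes (rows), with dashed lines at 2-fold and no error bar. Syt6 and Foxp2 lie to the right of the 2-fold line against both cortical references and between the 2-fold lines against layer 6b, while Nxph4 and Gfap lie far to the left against layer 6b.

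Layer 5 lies directly above. The planned reference, spots with a mean z of at least 1 for Deptor, Parm1 and Bcl6, turned out to be mixed: of 794 such spots only 360 passed the cortical minimum. Against all 794, 53 of 9929 genes were higher in layer 6 (0.534%) and 103 lower (1.04%), of which 6 and 0 were genes of the layer 6 rule. The 360 cortical spots, a restriction added after the values were seen, are the closer neighbour. Against them 41 of 9750 genes were higher (0.421%) and 34 lower (0.349%). The 41 include 3 genes of the layer 6 rule, and both lower lists include the 3 genes that chose the layer 5-rich spots. Of the 34 lower genes only 12 (35.3%) were among the 103 (11.7% of those), so the lower list depended on which spots stood for layer 5. It also rested on set 4, as 56 genes were lower when that set was left out. With TMM scaling the planned reference gave 76 higher and 74 lower genes.

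Against cortical layer 5-rich spots, 5 of 9 corticothalamic genes were 2-fold higher (Foxp2, Syt6, Hs3st4, Tle4 and Ntsr1), with a median log2 difference of 1.58. Ntsr1, the neurotensin receptor used to target corticothalamic cells, was at 21.0, 27.7, 18.4 and 20.6 CPM against 5.17, 8.90, 4.23 and 8.66 CPM. Sulf1, a sulfatase that edits heparan sulfate, had the widest gap, 48.7, 46.3, 37.9 and 22.5 CPM against 4.85, 3.14, 4.35 and 1.92 CPM. Ntsr1 and Sulf1 reached the 10 CPM average only through the members. Sema5a was at 98.6, 79.9, 62.0 and 45.6 CPM against 17.8, 19.1, 14.3 and 15.9 CPM. Of 6 layer 5 genes, none of which chose the spots, 4 were 2-fold lower in layer 6, with a median log2 difference of -1.21. Tshz2 was at 23.7, 16.6, 21.1 and 25.7 CPM against 117, 40.1, 125 and 96.7 CPM. Fezf2, which directs the subcortical projection of layer 5 neurons, was at 54.9 to 76.5 CPM in layer 6 against 80.9 to 131 CPM. Bcl11b, its usual partner, was the exception of the 6, at 27.5 to 46.3 CPM against 22.5 to 38.0 CPM and higher in each set. Tafa1, a secreted neuronal factor, was 26.4 to 54.2 CPM in layer 6 against 159 to 172 CPM. The 2 layers were not cleanly parted, as 114 members (9.67%) were themselves rich in the 3 layer 5 genes.

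Layer 6b, the remnant of the subplate, lies directly below. Its 711 spots were those with a mean z of at least 1.5 for Ccn2 and Cplx3, the same limit that closed the layer 6 rule. Against them 34 of 9869 genes were higher in layer 6 (0.345%) and 143 lower (1.45%), or 49 and 99 with TMM scaling and 49 and 104 with RLE scaling. The 143 include 3 genes of the rule, of which Ccn2 and Cplx3 also chose the layer 6b spots. The corticothalamic genes did not separate the areas: 0 of 10 passed in either direction, 4 were higher and 4 lower in every set, and the median log2 difference was -0.12. Tbr1 was at 109, 167, 115 and 186 CPM in layer 6 and at 102, 128, 102 and 162 CPM in layer 6b.

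What differed were other groups. Nxph4, a neurexophilin of subplate neurons, was at 3.44, 1.64, 2.69 and 0.925 CPM in layer 6 against 90.9, 55.2, 72.9 and 42.4 CPM. Its relative Nxph3, although a gene of the layer 6 rule, was also at least 2-fold lower in layer 6 than in layer 6b in every set. Tmem163, a zinc transporter of vesicles, was at 42.9 to 53.2 CPM against 111 to 144 CPM. Moxd1 and Svil were low in layer 6, at 1.17 to 2.99 and 2.03 to 2.74 CPM, against at least 8.86 and 8.44 CPM. Col23a1, a transmembrane collagen on the list for intratelencephalic neurons, was at 9.54 to 11.2 CPM against 29.8 to 58.7 CPM. The other genes of that list, Osr1, Col18a1 and Col27a1, were at 1.30 to 5.31 CPM in layer 6. Of 8 myelin genes 7 were 2-fold lower in layer 6, with a median log2 difference of -1.46, and Gfap was at 19.9 to 32.5 CPM against 222 to 293 CPM. Of 7 striatum genes 6 were lower too, and Drd2 was at 2.36 to 3.98 CPM against 24.9 to 40.2 CPM. The striatum list summed to 528 to 639 CPM in layer 6 and to 1299 to 1669 CPM in layer 6b, and whether tissue beneath the cortex shared the layer 6b spots was not tested.

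The genes described next were among the 34 higher than in layer 6b. Nefm and Nefh, the medium and heavy neurofilament chains, were at 327, 437, 323 and 580 CPM against 101, 130, 94.9 and 192 CPM, and at 73.8, 58.5, 79.1 and 108 CPM against 19.0, 21.6, 21.6 and 42.0 CPM. Vamp1, a vesicle fusion protein, was at 91.3 to 155 CPM against 28.8 to 55.0 CPM, and Syt2, a fast calcium sensor of release, at 39.8 to 77.0 CPM against 12.2 to 21.6 CPM. The potassium channel subunit Kcnab3 was 3.98-, 4.45-, 5.25- and 3.56-fold higher. In cortical layer 5-rich spots Nefh was at 134 to 207 CPM, above layer 6, and Vamp1 was at 147 to 174 CPM, above layer 6 in 3 of 4 sets.

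Of 26 transcription factors tested, 6 were higher than in all other spots, among them Tbr1, Sox5, Zfpm2, Fezf2 and Nr4a2, and 1 lower (Id4), with a median log2 difference of 0.62. Of all 10002 genes there, 95 were higher and 220 lower, with a median of -0.07. Against other cortical spots 1 of 26 was higher (Foxp2) and 2 lower (Cux2 and Rorb), with a median of 0.17. Of all 9811 genes there, 25 were higher and 50 lower, with a median of -0.004. The Nr4a2 level was carried by claustrum-rich members, as described below. Sox5, an SRY-box factor of deep-layer neurons, was at 76.7, 83.8, 89.7 and 79.4 CPM against 27.3, 30.6, 32.1 and 27.5 CPM. Id4, an inhibitor of helix-loop-helix factors, was at 56.2 to 66.2 CPM against 228 to 251 CPM.

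Htr1f, a serotonin receptor, was the only 1 of 23 neuromodulator receptors tested that was 2-fold higher than in all other spots, at 40.5, 38.1, 42.2 and 34.8 CPM against 11.9, 15.3, 15.4 and 11.8 CPM, and 4 were lower. Of all 10002 genes 95 were higher and 220 lower there, so the lower receptors exceeded the share over all genes. A single higher receptor of 23 says little. Against other cortical spots 0 of 21 were 2-fold higher and 1 lower, where 25 and 50 of all 9811 genes were. Htr1f was at 19.4 to 21.8 CPM in the other cortical spots. Chrna5, the nicotinic receptor subunit known for its place in layer 6, had too low a mean for the comparison. Its values were 19.4, 19.1, 15.5 and 9.97 CPM in the members, 2.59 to 2.97 CPM in all other spots, 5.21 to 7.20 CPM in the other cortical spots and 19.1 to 26.2 CPM in layer 6b. Layer 6 and layer 6b both stood above the rest. Adra1d, an alpha-1 adrenergic receptor, and Adra2a, an alpha-2 receptor, ran opposite ways against layer 6b. Adra1d was at 47.0, 52.8, 54.3 and 71.0 CPM in layer 6 against 9.78, 15.6, 9.55 and 23.9 CPM, while Adra2a was at 37.0, 27.9, 50.0 and 25.7 CPM against 169, 121, 199 and 93.5 CPM. Among 22 glutamate receptor genes 0 were 2-fold apart from all other spots in either direction, which is near the share over all genes. Grm2, a presynaptic metabotropic receptor, was the 1 of 22 that was 2-fold lower than in other cortex. It was at 21.0 to 31.6 CPM against 52.4 to 84.7 CPM.

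Celsr2 and Celsr3 were less than 2-fold apart between layer 6 and each of the other areas in every set. Celsr3, the gene of the study, was at 34.9, 46.3, 26.8 and 43.3 CPM in the members of sets 1 to 4 (exact Poisson 95% intervals 32.4 to 37.6, 42.6 to 50.2, 24.7 to 29.0 and 39.2 to 47.6). In all other spots it was at 31.3, 46.9, 25.9 and 47.6 CPM, and in other cortical spots at 32.4, 47.8, 24.5 and 50.5 CPM. The ratio of layer 6 to other cortex lay between 0.857 and 1.09, above 1 in 2 sets and below 1 in 2, and the median log2 difference over the sets changed sign when set 1 or set 3 was left out (-0.042 and -0.048, from 0.030). The sets could not be assigned to genotypes, and these levels were not used to do so. Celsr2 was at 234, 211, 236 and 192 CPM in the members, 0.947- to 1.05-fold of other cortex. Celsr1 was at 2.29 to 2.95 CPM in layer 6 and at 5.80 to 8.59 CPM in layer 6b. Of 6 planar polarity genes with enough signal 0 were 2-fold apart from all other spots. As only 95 of all 10002 genes were higher and 220 lower there, 0 of 6 says little. To some degree 4 of the 6 were higher in every set, against 2455 of all 10002 genes. Against other cortical spots 2 of the 6 were higher and 2 lower in every set. The closest to 2-fold against all other spots was Prickle1, a cytoplasmic partner in the same pathway. It was at 134, 117, 125 and 93.8 CPM against 68.4, 58.9, 58.0 and 50.6 CPM.

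The members were not uniform. Principal axes were computed over 1000 variable genes in the 1179 members after centring within each set, and they describe spots, not animals. The axes were recomputed in each set alone, and the best-matching axis is given as a correlation over the 1000 genes. Axis 1 held 10.5% of the variance and recurred in every set (r of 0.94, 0.98, 0.90 and 0.91). Over the members it had a correlation of 0.71 with the rule's own score, 0.48 with the layer 6b score and -0.56 with the layer 5 score. Genes of the rule were among those that built the axis, so the first of these is partly fixed by construction.

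At the 25% of members highest on axis 1, Sulf1 was at 99.3, 104, 90.4 and 54.4 CPM in sets 1 to 4, and at the lowest 25% at 6.02, 5.30, 5.14 and 4.14 CPM. Hpcal4, a neuronal calcium sensor, was at 1371, 2210, 1757 and 1920 CPM against 714, 988, 799 and 732 CPM. In the other direction Plcxd2, a phospholipase C domain gene, was at 28.9, 12.5, 30.3 and 29.8 CPM against 209, 174, 205 and 242 CPM at the low end, and Nefh was at 32.7, 19.8, 25.8 and 35.8 CPM against 139, 118, 155 and 226 CPM. The corticothalamic list summed to 903, 1122, 962 and 1094 CPM at the high end and to 445, 392, 446 and 408 CPM at the low end. Myelin moved with it: 17326, 15349, 12588 and 10270 CPM at the high end against 6117, 6070, 4854 and 5785 CPM. Its part in the axis was not tested. These differences follow from how the axis was built and are a description.

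Axis 2, with 5.97% of the variance, separated spots by myelin genes from spots high in Cck, a neuropeptide. Mbp was at 6431, 7723, 4374 and 4194 CPM at the high end against 2709, 2744, 2068 and 2918 CPM. Of the first 3 axes this had the lowest r in any set alone, with r of 0.92, 0.75, 0.87 and 0.58 in the sets alone, and it correlated at -0.28 with the log counts of a spot. Axis 3, with 4.43%, set Tpbg against Lypd1 and Wnt7b. Tpbg was at 285, 346, 324 and 300.0 CPM at the high end against 51.6, 45.5, 48.0 and 34.4 CPM. Lypd1, a modulator of nicotinic receptors, was at 26.5, 13.8, 15.8 and 14.0 CPM against 157, 93.4, 119 and 66.7 CPM. Robo3, a receptor for guidance across the midline, went with Tpbg at 98.2, 92.4, 96.0 and 106 CPM against 25.9, 18.3, 18.9 and 23.2 CPM. The layer 6 score had a correlation of only 0.05 with this axis. Layer 5 genes were lower at the Tpbg end, with sums of 130, 96.0, 137 and 121 CPM against 241, 244, 285 and 309 CPM.

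**Figure D4:**
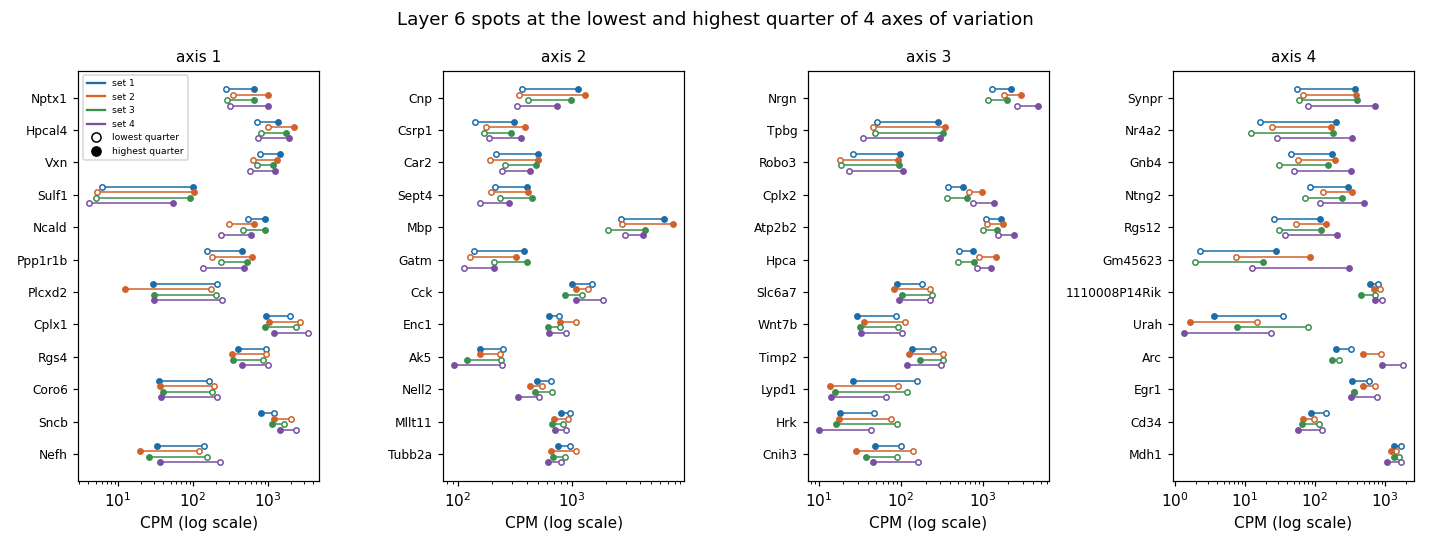
For each of 4 axes of variation among the 1179 members, the lines join a gene's CPM (horizontal log scale) in the 25% of members lowest (open circle) and highest (filled circle) on the axis, with 1 line for each barcode set. Up to 6 genes from each end are drawn, without genes of the rule. On axis 4, Nr4a2 and Synpr run from 12.3 to 28.8 and from 55.7 to 79.0 CPM at the low end to 169 to 338 and 380 to 722 CPM at the high end.

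Axis 4, with 2.46% of the variance, picked out the claustrum genes Synpr, Nr4a2, Gnb4 and Ntng2. The layer 6b list rose at the same end, to 97.1, 75.2, 96.6 and 129 CPM from 42.7, 32.4, 35.2 and 35.0 CPM. The claustrum list is not particular to layer 6 either. It summed to 510, 775, 548 and 950 CPM in layer 6b spots and to 508, 599, 491 and 788 CPM in the members. By the claustrum list itself, 179 members (15.2%) were rich in its 6 genes, and how far these spots are those of the axis was not tested. In these 179 spots Nr4a2, an orphan nuclear receptor, was at 303, 296, 266 and 389 CPM in sets 1 to 4, and in the other 1000 members at 21.1, 25.3, 21.9 and 28.7 CPM. Across all other kept spots of the sections it was at 15.3, 21.9, 16.4 and 28.5 CPM. The list chose the spots, so its own genes are no finding, and the level of Nr4a2 over all members, 59.9, 60.9, 58.0 and 102 CPM, lay between the values of its 2 kinds of spot.

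Genes outside the claustrum list differed as well. Gm45623, a gene model of unknown role, was at 39.8, 146, 27.3 and 359 CPM in the claustrum-rich members against 3.52, 9.71, 2.99 and 18.7 CPM in the rest. Urah, a hydrolase of the urate pathway, was at 2.17, 2.97, 6.97 and 3.05 CPM against 16.5, 7.37, 37.1 and 11.6 CPM. Both genes were named from the ends of axis 4 after their values were seen. Corticothalamic genes were present in both kinds of member: Foxp2 was at 37.3, 41.0, 37.0 and 27.4 CPM in the claustrum-rich spots and at 33.3, 30.6, 32.7 and 24.0 CPM in the rest. Syt6 was at 59.4, 73.7, 53.0 and 47.7 CPM against 73.6, 62.1, 67.1 and 46.3 CPM, higher in some sets and lower in others. Tle4 was lower in every set, at 104, 65.9, 85.5 and 53.3 CPM against 123, 69.5, 104 and 53.6 CPM. Tbr1 was higher in every set, at 119, 175, 127 and 255 CPM against 107, 165, 113 and 168 CPM. At the high end of axis 4 the 10-gene list summed to 661, 706, 678 and 888 CPM, against 831, 981, 841 and 898 CPM at the low end. Without the 179 spots, 20 genes were higher and 58 lower than in other cortical spots, in place of 25 and 50.

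The sets differed from each other inside layer 6. Of 9721 genes, 1104 (11.4%) were at least 2-fold apart between the lowest and the highest set. By pairs, 573 genes were 2-fold apart between sets 1 and 2, 29 between 1 and 3, 824 between 1 and 4, 412 between 2 and 3, 42 between 2 and 4, and 594 between 3 and 4. With set 1 left out the count was 672, and with set 4 left out 694. Median counts per member spot, given above, also differed between the sets, and their part in these counts was not tested. Of the 1104 genes 802 (72.6%) were also 2-fold apart over all other spots, so most of these genes were also apart outside layer 6.

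Several of the widest gaps came from 1 set far below the others. Gm10260, a ribosomal-protein-like model, was at 3.49, 138, 122 and 267 CPM in the members and at 2.69, 149, 137 and 292 CPM elsewhere. Amd1, which makes a building block of polyamines, was at 22.2, 15.3, 0 and 42.6 CPM, and at 22.7, 14.9, 0 and 40.5 CPM elsewhere. Me1, the cytosolic malic enzyme, was at 20.5, 9.44, 22.0 and 0 CPM, and H2-D1, a class I histocompatibility gene, at 28.6, 14.8, 31.7 and 0.103 CPM. In each of these 4 genes a single set stood lowest, and the same set was lowest in the rest of the section. Hbb-bs, a haemoglobin chain of red blood cells, was at 11.9, 6.87, 0.269 and 44.5 CPM, and Hba-a2 at 4.38, 4.92, 1.12 and 37.5 CPM.

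Immediate-early genes, which neurons switch on within minutes of strong activity, differed between the sets inside layer 6. Of its 10 genes with enough signal 9 were 2-fold apart, with a median range of 2.00 in log2 inside layer 6 and 1.75 in all other spots, against 0.50 over all genes in layer 6. Arc, an activity-driven regulator of synaptic receptors, was at 283, 676, 212 and 1401 CPM in the members and at 101, 346, 95.7 and 373 CPM in all other spots. Layer 6 was 2.79-, 1.96-, 2.22- and 3.76-fold above the rest of the section in this gene. Fos was at 16.7, 71.0, 11.2 and 90.9 CPM against 15.8, 64.8, 8.93 and 87.8 CPM, so it varied between sets and hardly between areas. Nr4a1 was at 103, 152, 66.7 and 290.5 CPM and Junb at 56.9, 112, 44.6 and 191 CPM. Egr1 was the member of the list below 2-fold, at 488, 585, 372 and 560 CPM.

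Against other cortex the list differed little. Of 11 genes tested 0 were 2-fold apart, 2 were higher and 5 lower in every set, and the median log2 difference was -0.08. Over all 9811 genes 2441 were higher and 2741 lower in every set. The list's share was thus somewhat smaller for higher genes and larger for lower genes. Arc was 1.75-, 1.36-, 1.47- and 1.69-fold higher than in other cortex, while Egr4 was 0.574-, 0.653-, 0.681- and 0.835-fold. The claustrum-rich members had less Fos in 3 of the 4 sets, 9.78, 52.3, 12.1 and 46.2 CPM against 17.8, 73.8, 11.1 and 102 CPM in the rest.

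**Figure D5:**
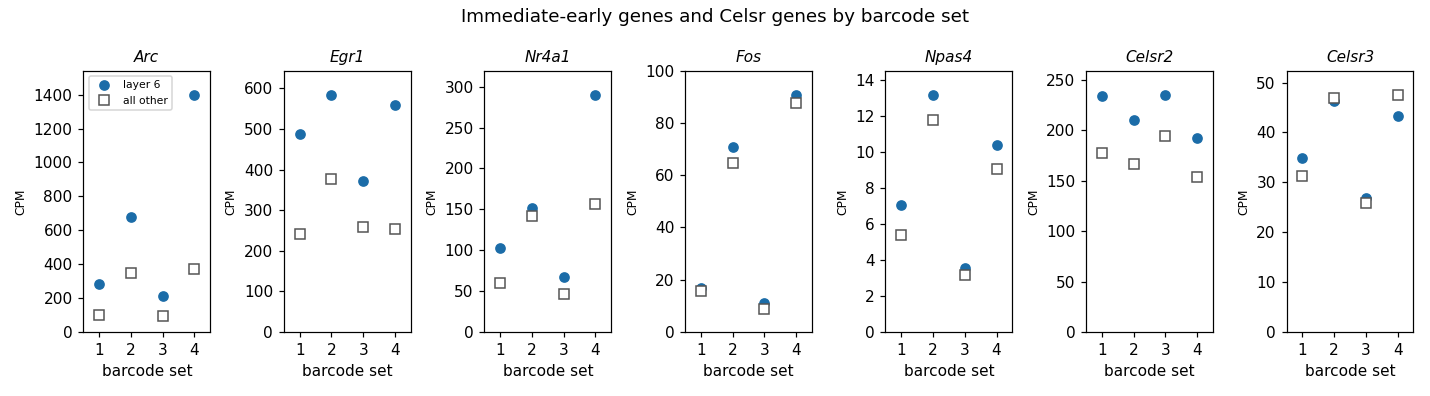
Filled circles give the CPM (vertical axis, from 0) of 5 immediate-early genes, Celsr2 and Celsr3 in layer 6 spots and open squares in all other kept spots, for each barcode set (horizontal axis), with no error bar. Arc ranges from 212 to 1401 CPM in layer 6 and Fos from 11.2 to 90.9 CPM, and in Fos the areas of a set lie close together.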

How the data were processed

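Members, lists and comparisons were chosen with earlier results of these data known. The deposited file holds raw counts, whole and not normalized, of 19465 genes in 12602 spots. The submitters' processing notes name Space Ranger and Seurat, and versions, genome build and probe set are not given in the sources used here. Probes read part of each transcript, so levels of different genes are not on 1 scale, and closely related genes may share probes.

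Spots under 500 counts were left out (1 spot). Scores are mean z-scores of log1p(counts per 10000), over all kept spots. The layer 5 rule used 3 genes, of 4 that were planned. Counts were summed per area and barcode set, and scaled to CPM. Differences are of log2(CPM + 1), a pseudocount of 1 CPM, for genes averaging 10 CPM or more over both areas. As no set could be tied to a sample, the planned genotype test was not run. Named genes are every gene of the layer 6 lists and of the immediate-early list, the Celsr genes, the 15 highest and 15 lowest genes of each comparison (the cortical ones added) by their smallest difference over the sets, list genes 2-fold apart, and the 15 genes widest apart between sets. Genes named outside this rule were chosen after their values were seen: Chrna5, Prickle1, Mbp, Cckbr, Neurod2, Bcl11b, Cd3e, Cd3g, Tnnt2 and the genes named only for the axes or the claustrum-rich members. Sex-linked genes were left out of the ranking of sets. Shares have exact Clopper-Pearson and levels exact Poisson intervals, at 95%, which cover counting error only. The cortical minimum, the axes and the promoter letters were added after the values were seen.

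On simulated counts with 200 genes changed 4-fold, 91.5% were recovered against all other spots (10141 genes tested), 96.5% against other cortex (9815), 95% against cortical layer 5-rich spots (9733) and 94% against layer 6b (9799), and 0 unchanged genes were called in each. Unchanged genes had the same level in both areas with counting error only. Variation between spots and the choice of members on the same counts were not simulated, so the 0 is no false-call rate for these data. Alternatives were other limits of the rule, scores within sets, scores on counts thinned to 10000 per spot, the rule without each gene and each set left out. Others were TMM and RLE scaling (edgeR 4.0.16 in R 4.3.3), a pseudocount of 10 CPM and no filter. Other steps used Python 3.11.15, numpy 2.4.6, scipy 1.17.1, pandas 2.3.3 and matplotlib 3.10.9.

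Some genes are not reported here.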

Additional observations from a re-analysis of the deposited data

How the results depend on the processing

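No paired analysis was possible because no barcode set could be tied to a mouse, so the genotype test, its replicate block and DESeq2 were not run. Of 220 counts recomputed under 20 alternatives, 197 stayed within 1.5 times the reported count. With a pseudocount of 10 CPM the counts of higher and lower genes were 58 and 118 against all other spots, 11 and 23 against other cortex, 30 and 41 against layer 5-rich spots, 18 and 8 against the cortical ones, and 15 and 61 against layer 6b, and 486 genes were apart between sets. With no filter on low genes, 451 were lower than in all other spots, 212 lower than in layer 5-rich spots, and 1733 apart between sets. Thinned spots gave 16 genes higher than in other cortex and 16 higher than in layer 6b. Genes lower than in cortical layer 5-rich spots numbered 18 with the rule lacking Rprm, 17 lacking Nxph3 and 59 lacking Myl4, and 35 to 56 with 1 set left out, the highest without set 4. Genes apart between sets ranged from 672 to 974 with 1 set left out, with 672 without set 1 and 694 without set 4, as the range then covers fewer sets.

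RLE scaling gave 145 higher and 158 lower than all other spots, and TMM 135 and 166, because they moved the median log2 difference of all genes from -0.07 to 0.13 and 0.08. The share of higher among all calls moved accordingly, also against layer 5-rich spots (76 higher and 74 lower with TMM, 73 and 75 with RLE). Layer 6b gave 49 and 99 with TMM. For the other moved counts the cause was not tested. Of the recomputed values of 34 genes (medians over the sets), 478 stayed within the counting interval, 169 moved and 9 changed sign. The sign changed for 2 genes, Celsr2 and Celsr3, both against other cortex (-0.025 and 0.030 as reported). Celsr2 had a log2 difference of 0.00086 without Rprm in the rule, 0.030 with TMM, 0.039 with RLE and 0.00095 with a cortical minimum of 0. The scalings shifted all genes alike, with the median of all genes against other cortex at 0.039 and 0.056. Celsr3 had -0.031 with a mean z of 0.8, -0.033 without Rprm, -0.028 without Nxph3, and -0.048 (without set 3) to 0.103 (without set 4) with 1 set left out, with -0.042 without set 1. Depth limits genes under 10 CPM, and set 4 was the shallowest.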
